A study of Mus musculus with 12 samples.

Results

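*Mixl1*, *Eomes*, *Gsc*, *Mesp1*, *Lhx1* and *Evx1* encode transcription factors that are switched on in the primitive streak and in the mesendoderm that leaves it. Their transcripts were followed across gastruloids grown with different amounts of glucose or with a glucose analog. The genes were picked by symbol as regulators of the streak, with earlier results of these data known, and make up 6 of the 38911 genes whose counts could be summed in the files. All 6 passed the filter on low counts, although *Eomes* did so only through its libraries of passage 16.

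Gastruloids are aggregates of embryonic stem (ES) cells that break symmetry and elongate in culture without the extraembryonic tissues of the embryo. Those measured here were made from E14TG2a, a mouse ES cell line. The ES cells had been grown in 2iLIF medium, which holds a Wnt agonist, an ERK antagonist and leukaemia inhibitory factor. The gastruloids were plated at 200 cells per aggregate and harvested on day 4. They had received the Wnt agonist CHIR and were then treated during the last day of culture. The 4 groups were 1X glucose (21.25 mM), no glucose (called 0X glucose here), 3X glucose (63.75 mM) and 2-DG, which is 5 mM 2-deoxy-D-glucose given in 1X glucose medium. Each group holds 3 libraries of polyA RNA, 1 from each of ES cell passages 13, 15 and 16, and each library is made from a pool of gastruloids. All libraries come from a single ES cell line, so that the replicates are passages of that line. Whether the passages differ in genotype is not given in the labels. In such bulk samples fewer cells of a type and less RNA per cell cannot be told apart.

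In the embryo, *Nodal*, Wnt and BMP signals turn part of the epiblast into the primitive streak, the site where cells leave to form mesoderm and definitive endoderm. *Eomes*, a T-box factor, and *Mixl1*, a paired-type homeobox factor, act in the streak downstream of *Nodal* and are needed for endoderm and for the earliest mesoderm. *Gsc*, a homeobox repressor, and *Lhx1*, a LIM homeobox factor, mark the anterior streak and the mesendoderm derived from it, and *Lhx1* is also used later in intermediate mesoderm and in neurons. *Mesp1*, a basic helix-loop-helix factor, marks the mesoderm from which heart and cranial tissues arise and is used again in presomitic mesoderm. *Evx1*, a homeobox factor of the even-skipped family, marks the posterior streak and later the V0 interneurons of the spinal cord.

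In RefSeq on the GRCm38.p6 assembly, *Mixl1* lies on the minus strand at chr1:180693043-180697034, and its counted transcript has 2 exons. *Eomes* is on the plus strand at chr9:118478186-118486132, and *Gsc* on the minus strand at chr12:104471209-104473236. *Mesp1* lies on the minus strand at chr7:79792241-79793590, and *Lhx1* on the minus strand at chr11:84517975-84525534. *Evx1* is on the plus strand at chr6:52313498-52318389.

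Promoter sequence from RefSeq (GRCm38.p6) was matched for 5 of the 6 genes, all but *Mixl1*. The 250 bases before the annotated RefSeq start were searched on both strands for 5 motifs of factors known to act in the streak. CTTTGA, the core of the TCF/LEF site bound in Wnt signalling, occurred in 13.8% of the 32851 promoters in the table. GGTGTGA, a T-box site, occurred in 3.33%, ATCCACA, the core of the FoxH1 site used in *Nodal* signalling, in 2.78%, GGATTA, a bicoid-type homeodomain site, in 6.25%, and TAATTA, a general homeodomain site, in 4.84%. No motif overlaps another in the matches found. Only the *Mesp1* window held a match, in 2 places, both of them the TCF/LEF letters. Each is shown in capitals inside 30 bases read on the strand of the gene, as the only matches among these genes. Both lie before the RefSeq start of *Mesp1* but inside the first exon of its longer GENCODE transcript.
Mesp1, chr7:79793645-79793674: ccctgctatggtTCAAAGggttcaggccct
Mesp1, chr7:79793604-79793633: ggctcgagccggCTTTGAtatgctgatgaa
The windows of *Evx1* and *Lhx1* are shown because these genes moved in opposite directions in one passage. Neither holds any of the 5 motifs, so they are printed without capitals. That of *Evx1* lies wholly inside *Evx1os*, a long noncoding RNA gene.
Evx1, plus strand, chr6:52313248-52313497: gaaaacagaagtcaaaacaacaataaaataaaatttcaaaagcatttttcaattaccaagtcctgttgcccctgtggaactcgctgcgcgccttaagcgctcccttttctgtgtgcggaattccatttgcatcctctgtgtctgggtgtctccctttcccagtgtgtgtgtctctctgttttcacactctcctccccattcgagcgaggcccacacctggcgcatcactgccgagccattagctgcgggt
Lhx1, minus strand, chr11:84525536-84525784: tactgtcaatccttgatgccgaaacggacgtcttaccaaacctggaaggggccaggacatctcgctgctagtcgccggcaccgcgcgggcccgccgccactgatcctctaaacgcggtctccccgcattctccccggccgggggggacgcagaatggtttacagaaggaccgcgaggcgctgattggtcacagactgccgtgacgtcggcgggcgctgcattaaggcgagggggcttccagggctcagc

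The libraries held 31902471 to 45956080 counts (median 35638001), and levels are given as CPM, each count divided by the TMM-scaled total of its library and multiplied by 1000000. Fitted log2 fold changes are given with their standard error (SE). Genes were tested with edgeR's quasi-likelihood test over all 16966 genes that passed the filter, with p-values adjusted by the Benjamini-Hochberg method and a gene called at an adjusted p under 0.05. For 3 libraries in either group, the smallest two-sided p that an exact permutation test allows is 0.1. The passages stood apart from each other, with 41.8% of genes called between passages 15 and 13, 40.2% between 16 and 13 and 4.2% between 16 and 15. Every comparison of treatments is therefore also given within passages. The median log2 fold change over all genes was between −0.01 and 0.00 in every comparison.

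The 6 genes covered a wide range of levels in 1X glucose. Per kilobase of the main transcript, *Evx1* was at 20.9 ± 10.3, *Lhx1* at 16.5 ± 11.5 and *Mesp1* at 15.8 ± 9.3 CPM per kb (mean ± SD, n = 3). These overlapped between libraries and did not differ beyond their spread. *Mixl1* followed at 2.51 ± 0.802, *Gsc* at 0.707 ± 0.246 and *Eomes* at 0.0838 ± 0.0693 CPM per kb, and here the libraries of each gene lay below all libraries of the gene before it. In 1X glucose 4 of the 6 genes were thus well counted. In 2-DG *Mixl1* had only 10 to 22 counts per library, as few as *Gsc* there (10 to 24). *Gsc*, with 10 to 57 counts per library, and *Eomes*, with 3 to 32, were close to the limit of detection in every group.

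**Figure D1:**
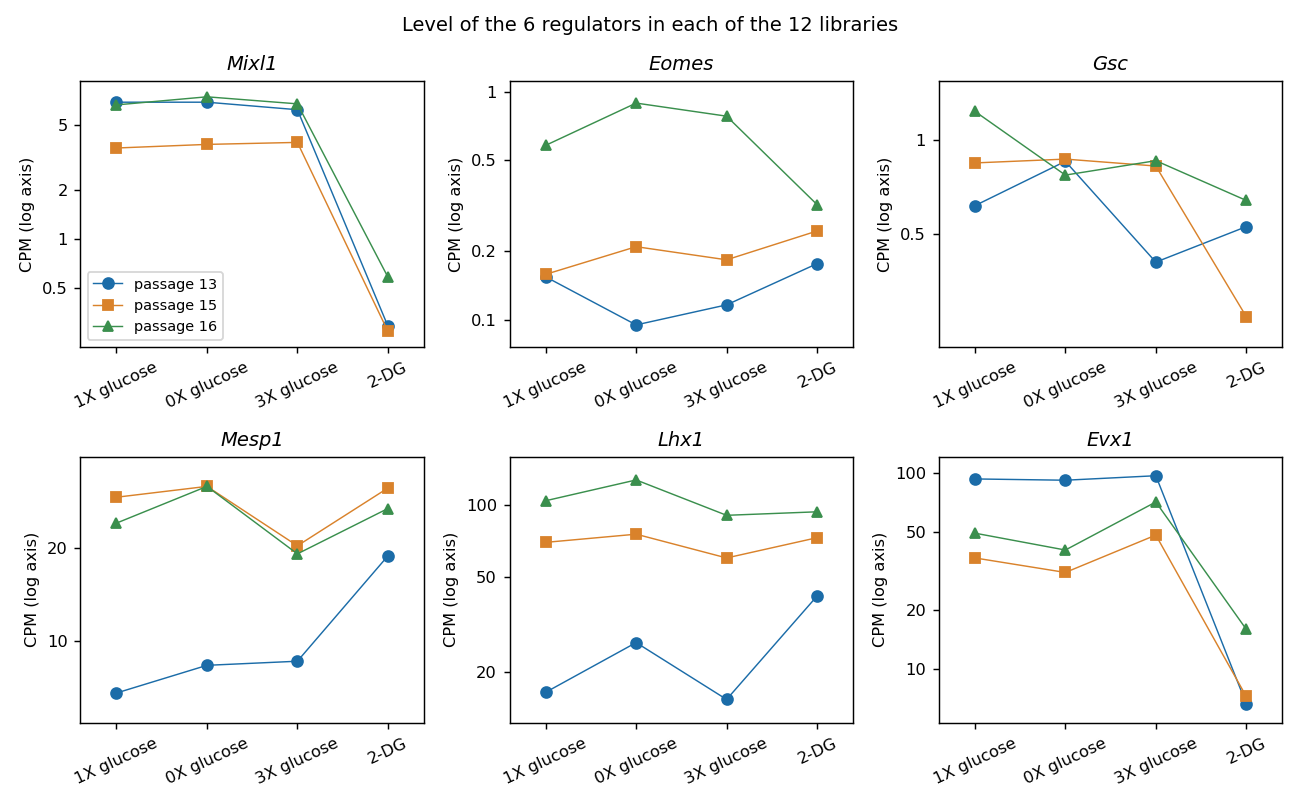
Level of each of the 6 genes (CPM, log axis, a different range in each panel) in the 4 groups, with 1 point per library and a line joining the libraries of an ES cell passage. Mixl1 and Evx1 are lowest in 2-DG in all 3 passages, while the passage 13 libraries of Mesp1 and Lhx1 lie under those of passages 15 and 16 in every group.

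In 2-DG, 2 of the 6 genes, *Mixl1* and *Evx1*, were lower than in 1X glucose and none was called higher. Among all genes tested, 17.6% were called in this comparison, with 9.12% of genes higher and 8.51% lower. *Mixl1* fell by a factor of 14.8 and *Evx1* by a factor of 6. *Mesp1* and *Lhx1*, the other well counted members, had fold changes of 1.28 and 1.09 and did not pass the test. With the passage as a block, 3 of the 6 were called lower, now with *Gsc*, where 41.3% of all genes were called, 20.2% lower and 21.1% higher.

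*Mixl1* was read at 6.94, 3.63 and 6.68 CPM in the 1X glucose libraries of passages 13, 15 and 16. In 2-DG the same passages gave 0.293, 0.272 and 0.586 CPM, from 10 counts in the smallest. Every 1X glucose library was far above every 2-DG library. Non-overlap of this kind was found for 35.4% of all genes tested, and for 17.2% with 2-DG lower. The fitted log2 fold change was −3.89 (SE 0.42, adjusted p = 0.00032, edgeR). Within passages it was −4.33, −3.50 and −3.39 on the log2 CPM scale, so that each passage showed the fall. With the passage as a block the value was −3.88 (adjusted p = 6.13e-07, edgeR), and without passage 13 it was −3.58 (adjusted p = 0.004, edgeR).

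*Evx1* was the second member to fall. It stood at 93.6, 37 and 49.5 CPM in the 1X glucose libraries of passages 13, 15 and 16, and at 6.68, 7.27 and 16 CPM in those of 2-DG. The passage 13 library was the highest of the 3 in 1X glucose and the lowest in 2-DG, and the groups did not overlap. The log2 fold change was −2.59 (SE 0.52, adjusted p = 0.00812, edgeR), and −2.47 in the blocked fit (adjusted p = 0.000225, edgeR). Leaving out passage 13, the passage with the greatest fall, left −1.89 (adjusted p = 0.00827, edgeR).

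The start of *Evx1* lies inside *Evx1os*, a long noncoding RNA gene at chr6:52308389-52314832 that overlaps it by 1335 bases. *Evx1os* had 71.8, 28 and 35.8 CPM in 1X glucose and 2.4, 3.11 and 7.99 CPM in 2-DG in passages 13, 15 and 16. Its log2 fold change was −3.32 (SE 0.62, adjusted p = 0.00559, edgeR), and its log2 level followed that of *Evx1* with r = 0.996 over 12 libraries. The kit marks the strand, but whether counting used it is not given in the sources used here, and reads of the overlap could belong to either gene.

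*Gsc* had 0.615, 0.842 and 1.23 CPM in 1X glucose and 0.527, 0.272 and 0.639 CPM in 2-DG, in passages 13, 15 and 16. The groups overlapped, since the highest 2-DG library lay above the lowest 1X glucose library. Within passages 2-DG was lower in 3 of 3, as were 30.8% of all genes, by −0.20, −1.46 and −0.89 on the log2 CPM scale. The log2 fold change was −0.90 (SE 0.38, adjusted p = 0.128, edgeR), and only the block for passage made it pass, at −0.89 (adjusted p = 0.0481, edgeR).

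*Eomes*, the T-box member, was at 0.154, 0.158 and 0.583 CPM in 1X glucose and at 0.176, 0.245 and 0.32 CPM in 2-DG. The single high 1X glucose library was that of passage 16, and the ranges overlapped. The log2 fold change of −0.28 had a standard error of 0.91 (adjusted p = 0.873, edgeR). With the passage as a block it was −0.16 (SE 0.46, adjusted p = 0.818, edgeR). The sign turned to 0.38 when the most abundant transcript stood for the gene.

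*Mesp1* and *Lhx1* did not pass the test in 2-DG. *Mesp1* was at 6.74, 29.4 and 24.2 CPM in 1X glucose and at 18.9, 31.5 and 27 CPM in 2-DG, in passages 13, 15 and 16. *Lhx1* was at 16.5, 69.7 and 104 CPM in 1X glucose and at 41.6, 72.9 and 93.5 CPM in 2-DG. For both genes the ranges overlapped, and the passage 13 library was the lowest in either group. The log2 fold change was 0.36 for *Mesp1* (SE 0.58, adjusted p = 0.73, edgeR) and 0.13 for *Lhx1* (SE 0.75, adjusted p = 0.935, edgeR). Taking the passage as a block gave 0.57 for *Mesp1* (SE 0.24, adjusted p = 0.0785) and 0.38 for *Lhx1* (SE 0.23, adjusted p = 0.206). For *Lhx1* the value without passage 13 was −0.07.

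**Figure D2:**
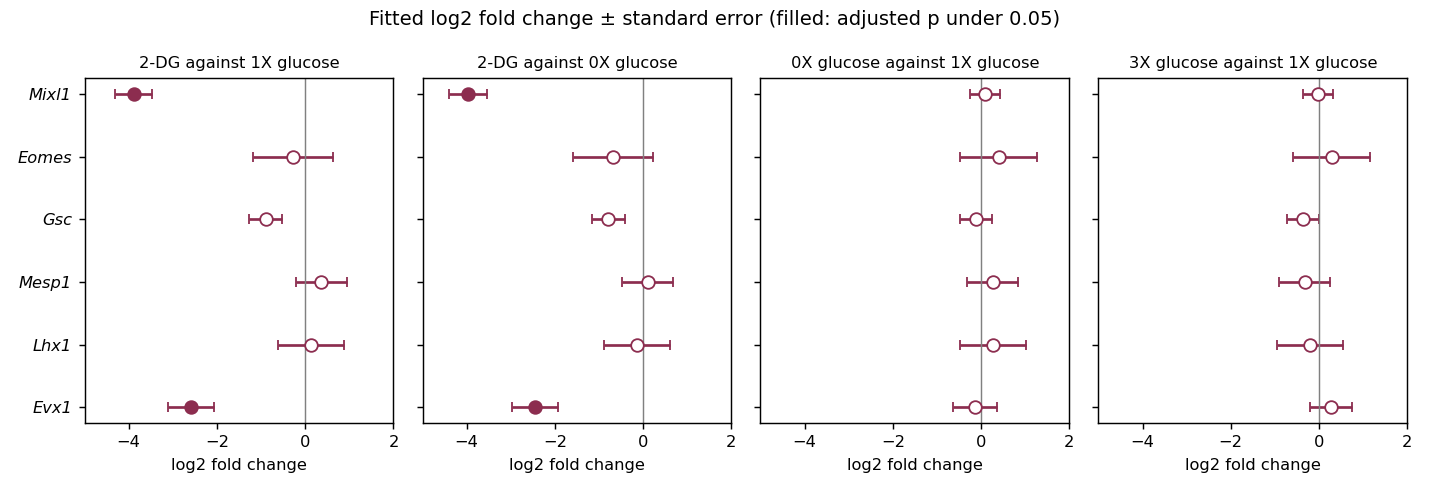
Fitted log2 fold change of the 6 genes (points) with its standard error (bars) in the 4 comparisons of treatments, each of 3 libraries against 3. Filled points are called at an adjusted p under 0.05, which are Mixl1 and Evx1 in 2-DG against 1X glucose and against 0X glucose, while every point of 0X and 3X glucose lies between −0.36 and 0.40.

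The size of the 2-DG difference depended on the passage for *Lhx1* and *Evx1*. In passage 13, 2-DG was above 1X glucose by 1.33 for *Lhx1* and by 1.48 for *Mesp1* on the log2 CPM scale. In passages 15 and 16 the differences were 0.06 and −0.16 for *Lhx1* and 0.10 and 0.16 for *Mesp1*. Passage 13 was thus the passage in which both genes were low without 2-DG, and in 2-DG its libraries moved towards those of the other passages. For *Evx1* the fall was −3.80 in passage 13, −2.34 in passage 15 and −1.63 in passage 16.

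An edgeR test of terms for 2-DG in each passage, added after these values had been seen, called *Lhx1* (adjusted p = 0.00804) and *Evx1* (adjusted p = 0.0125). It called 1.88% of all genes. *Mesp1* (adjusted p = 0.122), *Mixl1* (0.606), *Gsc* (0.539) and *Eomes* (0.467) were not called. Each passage holds 1 library of a treatment, so the spread in this test comes from the 1X, 0X and 3X glucose libraries.

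**Figure D3:**
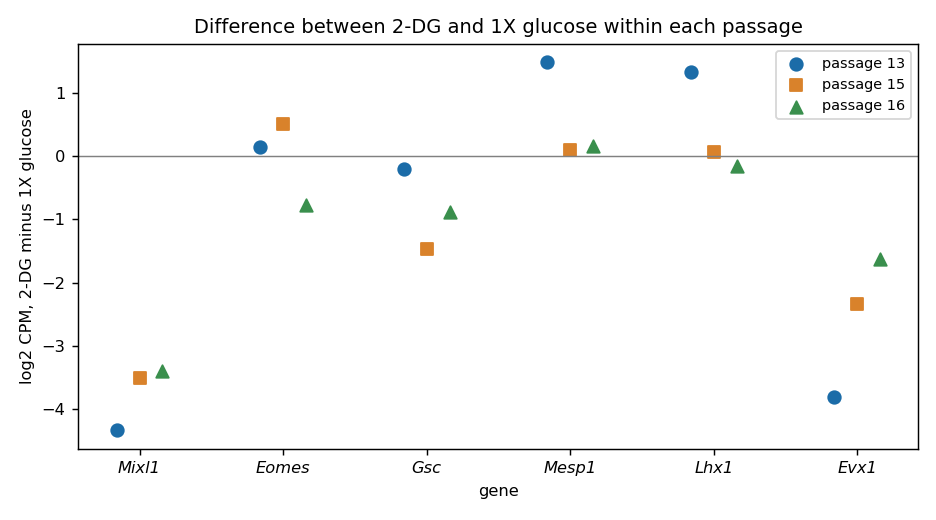
Difference in log2 CPM between the 2-DG and the 1X glucose library of the same passage, with 1 point per passage for each of the 6 genes. All 3 points of Mixl1 lie between −4.33 and −3.39 and those of Evx1 spread from −3.80 to −1.63, while Mesp1 and Lhx1 are raised by 1.48 and 1.33 in passage 13 and lie near 0 in the others.

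Removing glucose gave no call among the 6 genes. Of all genes 0.0118% were called in 0X glucose against 1X glucose. *Mixl1* stood at 6.94, 3.82 and 7.49 CPM in 0X glucose, and *Evx1* at 92.2, 31.2 and 40.6 CPM, in passages 13, 15 and 16. Both ranges overlapped those of 1X glucose almost entirely. *Evx1* was below 1X glucose in 3 of 3 passages, by −0.02, −0.25 and −0.29 on the log2 scale, like 16.7% of all genes. *Lhx1* had 26.6, 75.4 and 127 CPM and *Mesp1* 8.3, 31.9 and 31.9 CPM, above 1X glucose in 3 of 3 passages for each, a direction shared by 17.2% of all genes. Over the 6 genes the log2 fold changes lay between −0.14 and 0.40 with standard errors of 0.34 to 0.87, and the smallest unadjusted p was 0.658 (edgeR). DESeq2, too, called none of the 6.

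In 3X glucose, too, none of the 6 genes was called, and 0% of all genes were. At an unadjusted p under 0.05 there were 178 genes by edgeR, none of them a member, and DESeq2 called 2 genes, neither of them a member. *Mixl1* had 6.24, 3.93 and 6.78 CPM and *Evx1* 97.2, 48.4 and 71.4 CPM, in passages 13, 15 and 16. *Evx1* was above its 1X glucose library in 3 of 3 passages, like 17.3% of all genes, by 0.05, 0.39 and 0.53 on the log2 scale. *Lhx1* had 15.4, 60 and 90.4 CPM and was below 1X glucose in 3 of 3 passages, as was *Gsc*, like 14.9% of all genes. The differences of *Evx1* and *Lhx1* were within the spread between libraries, with log2 fold changes of 0.27 (SE 0.48) and −0.20 (SE 0.75). With the passage as a block the standard error for *Mixl1* was 0.12, at a log2 fold change of −0.01, and that for *Evx1* was 0.29 at 0.31.

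Against 0X glucose, *Mixl1* and *Evx1* were again lower in 2-DG and no member was called higher, where 18.9% of all genes were called and 9.04% were called lower. *Mixl1* changed by −3.97 (SE 0.42, adjusted p = 0.000285, edgeR) and *Evx1* by −2.45 (SE 0.52, adjusted p = 0.00946, edgeR). For *Gsc*, 0X glucose held 0.852, 0.866 and 0.77 CPM, and all 3 libraries lay above those of 2-DG. This gene did not pass the test at −0.79 (SE 0.38, adjusted p = 0.181, edgeR). Groups without overlap numbered 3 of the 6 members here, all with 2-DG lower, beside 37.9% of all genes and 18.6% with 2-DG lower. Both comparisons share the 2-DG libraries and are not independent of each other.

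More of the 6 genes were called between ES cell passages, in a fit with terms for treatment and passage, than between glucose levels. From passage 13 to 15, *Mesp1* and *Lhx1* were higher and *Mixl1* and *Evx1* lower, beside 20.8% of all genes higher and 20.9% lower. From passage 13 to 16, *Mesp1* and *Lhx1* were higher and no member was lower, beside 20.4% and 19.7% of all genes. Between passages 15 and 16, *Mixl1* was higher in 16 and no member was lower, beside 2.19% and 2.01% of all genes. *Eomes* is left out of both counts, since only its passage 16 libraries took it past the filter on low counts. Each passage is a single round of culture, whose libraries of different treatments served as its replicates. The p-values between passages therefore do not measure the spread between rounds. The passage and anything else that differed between these rounds of culture cannot be told apart.

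*Lhx1* lay between 15.4 and 26.6 CPM in the 1X, 0X and 3X glucose libraries of passage 13. It lay between 60 and 75.4 CPM in passage 15 and between 90.4 and 127 CPM in passage 16, so that the passages did not overlap. The fit between passages, unlike these ranges, took in all 12 libraries, those of 2-DG too. The log2 fold change of *Lhx1* was 1.53 from passage 13 to 15 (SE 0.20, adjusted p = 0.000219, edgeR) and 2.11 from 13 to 16 (SE 0.20, adjusted p = 3.01e-05, edgeR). *Mesp1* lay between 6.74 and 8.56 CPM in the same libraries of passage 13, and from 19.2 to 31.9 CPM in those of passages 15 and 16. It rose by 1.47 (adjusted p = 0.000358, edgeR) and 1.32 (adjusted p = 0.000674, edgeR) on the log2 scale.

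*Evx1* went the other way. It lay between 92.2 and 97.2 CPM in the 1X, 0X and 3X glucose libraries of passage 13, between 31.2 and 48.4 CPM in passage 15 and between 40.6 and 71.4 CPM in passage 16. Passage 13 was above both others in each treatment but 2-DG, where it was the lowest. The log2 fold change was −1.12 from passage 13 to 15 (SE 0.27, adjusted p = 0.00668, edgeR) and −0.50 from 13 to 16 (SE 0.26, adjusted p = 0.155, edgeR). Without the 2-DG libraries the latter was −0.85 (adjusted p = 0.000181, edgeR).

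*Mixl1* was even within a passage. Outside 2-DG it lay between 6.24 and 6.94 CPM in passage 13, between 3.63 and 3.93 CPM in passage 15 and between 6.68 and 7.49 CPM in passage 16. Passage 15 was therefore below both others, with a log2 fold change of −0.77 against 13 (adjusted p = 0.000595, edgeR) and of 0.91 for 16 against 15 (adjusted p = 0.00597, edgeR). *Eomes* was under 0.21 CPM outside 2-DG in passages 13 and 15 and between 0.583 and 0.894 CPM in passage 16. Its fitted differences were 2.16 between passages 16 and 13 and 1.64 between 16 and 15, given as a description because the filter kept the gene only for its level in passage 16. *Gsc* was not called between any passages, at 0.20, 0.56 and 0.36 on the log2 scale.

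**Figure D4:**
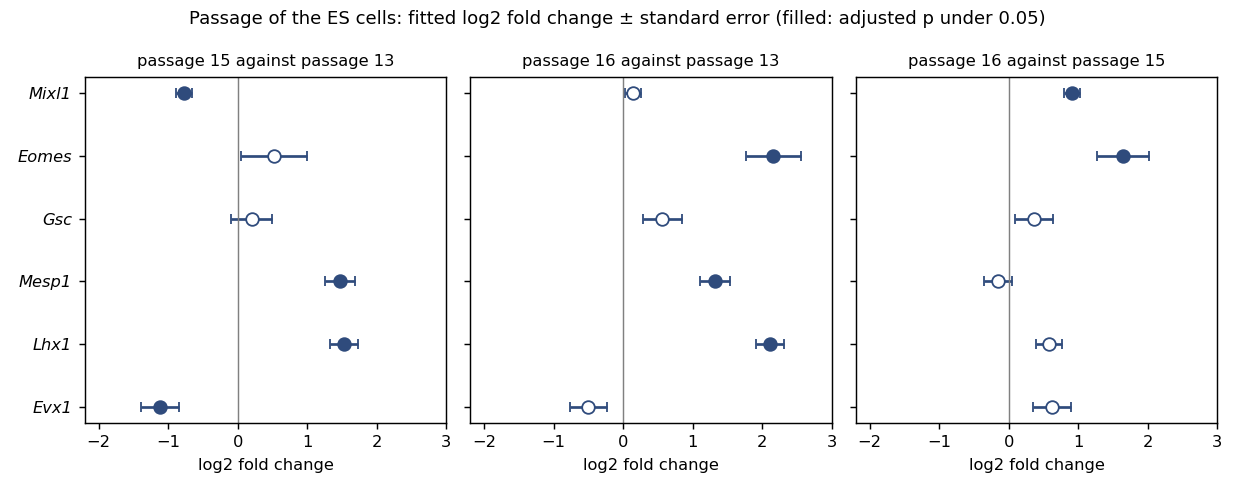
Fitted log2 fold change of the 6 genes (points) with its standard error (bars) between ES cell passages, from a fit of all 12 libraries with terms for treatment and passage. Filled points are called at an adjusted p under 0.05, with Mesp1 and Lhx1 higher in passages 15 and 16 than in 13, Evx1 and Mixl1 lower in 15 than in 13, and Eomes, which passed the filter only through passage 16, drawn for description.

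Genes of anterior streak derivatives, and of other lists, were also called between passages. Of 11 tested genes of axial mesoderm and endoderm, 5 were higher and 1 lower in passage 15 than in 13, with a median log2 fold change of 1.02, and 6 were higher and 0 lower in passage 16. *Sox17*, an endoderm regulator, rose by 2.06 (adjusted p = 9.81e-06) and 2.92 (adjusted p = 1.06e-06, edgeR), and *Foxa2*, a factor of endoderm and node, by 1.68 and 2.62. *Cer1*, a *Nodal* antagonist of anterior endoderm, had 0.615 CPM in the 1X glucose library of passage 13, 161 in that of passage 15 and 50.7 in that of passage 16. *Mesp2*, the paralog next to *Mesp1* that acts in somite formation, rose by 2.41 (adjusted p = 0.000145) and 1.79 (adjusted p = 0.000933, edgeR). A rise was also seen in other lists. Of 6 tested primitive endoderm genes, 3 were higher and 1 lower in passage 15 as in 16, with medians of 1.19 and 1.28. Of 11 tested heart and blood progenitor genes, 5 were higher and 1 lower in passage 15, and 7 and 1 in passage 16. Of 8 neural progenitor genes, 1 was higher and 5 lower in passage 15 than in 13, with a median of −0.62. All genes had 20.8% higher and 20.9% lower in passage 15, and 20.4% and 19.7% in passage 16.

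The inputs of the streak were then read in 2-DG against 1X glucose from lists chosen with earlier results of these data known. Of 12 genes of *Nodal* signalling, 1 was called higher and 2 lower, with a median log2 fold change of −0.07, where the median of all genes was 0.00. Among all genes 9.12% were called higher and 8.51% lower. *Nodal*, the ligand, was at 0.703, 1.32 and 1.97 CPM in 1X glucose and 0.468, 0.191 and 0.4 CPM in 2-DG, in passages 13, 15 and 16. It fell by 1.91 on the log2 scale (SE 0.52, adjusted p = 0.0306, edgeR). *Lefty2*, an antagonist that is itself a target of the pathway, fell by 2.69 (SE 0.58, adjusted p = 0.0107, edgeR). *Acvr2a*, a type II receptor, rose by 0.26 (adjusted p = 0.0227, edgeR). The co-receptor gene *Tdgf1* was at −1.28 (adjusted p = 0.154, edgeR), and *Foxh1*, which encodes a partner of Smad proteins, at 0.37 (adjusted p = 0.276, edgeR). When 1 library at a time was dropped (6 fits), the call of *Nodal* held only without the 1X glucose library of passage 13 (adjusted p = 0.0544 to 0.106 in the others, edgeR). That of *Acvr2a* was lost in 3 (without the 1X glucose library of passage 13 or the 2-DG library of passage 13 or 15, adjusted p = 0.0632 to 0.0753, edgeR).

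Of 12 genes of Wnt signalling, 1 was called higher and 2 lower, beside 9.12% and 8.51% of all genes, with a median of −0.30. Its ligands *Wnt5a* and *Wnt8a* were at −0.24 (adjusted p = 0.538) and 0.80 (adjusted p = 0.28, edgeR). *Wnt3a*, the ligand of the tail bud and late streak, was at 90.8, 35.3 and 40.8 CPM in 1X glucose and 6.97, 6.51 and 11.8 CPM in 2-DG, without overlap. It fell by 2.72 (SE 0.52, adjusted p = 0.00634, edgeR) and was, like *Evx1*, highest in 1X glucose in passage 13. *Wnt3*, the ligand that induces the streak, was at 1.1, 0.71 and 1.15 CPM in 1X glucose and 2.43, 1.42 and 1.84 CPM in 2-DG. It rose by 0.94 (adjusted p = 0.0331, edgeR), a call that held, with 1 library dropped, only without the 2-DG library of passage 15 (adjusted p = 0.0507 to 0.12 in the other 5 fits, edgeR). *Tcf7*, a TCF/LEF factor, fell by 0.36 (adjusted p = 0.0153, edgeR), which was lost without the 2-DG library of passage 13 (0.0596) or 15 (0.0554). The feedback targets *Axin2* at −0.45 (adjusted p = 0.063, edgeR) and *Dkk1* at −1.71 (adjusted p = 0.0578, edgeR) did not pass.

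In BMP and FGF signalling, 0 of 12 genes were called higher and 1 lower, with a median of −0.09. Neither share was above the 9.12% higher and 8.51% lower of all genes. *Bmp2* fell by 1.80 (SE 0.43, adjusted p = 0.0176, edgeR), from 2.46, 3.79 and 6.01 CPM to 0.556, 1.09 and 1.86 CPM. Its call was lost without the 2-DG library of passage 13 (0.0503) or 15 (0.0653), or the 1X glucose library of passage 16 (0.0582). *Bmp4*, the ligand known to induce mesoderm from the embryo's extraembryonic ectoderm, was at −0.19 (adjusted p = 0.786, edgeR), and *Fgf8* at 0.01 (adjusted p = 0.994, edgeR).

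Other genes of the streak and nascent mesoderm were mostly below 0 in 2-DG. Of 12, 11 had a log2 fold change under 0 with a median of −0.64, while 2 were called lower and 0 higher. The shares of all genes were 8.51% lower and 9.12% higher. *T*, the T-box gene Brachyury, was at 322, 167 and 187 CPM in 1X glucose and 64.6, 67.1 and 96.1 CPM in 2-DG. Its log2 fold change of −1.57 (SE 0.36, adjusted p = 0.0136, edgeR) lost its call without the 2-DG library of passage 13 (0.0535) or 15 (0.0577). The call of *T* was also lost with the most abundant transcript alone. *Fst*, which encodes the activin antagonist follistatin, fell by 0.64 (adjusted p = 0.0437, edgeR), a call that held only without the 1X glucose library of passage 13 or the 2-DG library of passage 16 (adjusted p = 0.108 to 0.131 in the other 4 fits with 1 dropped, edgeR). *Msgn1* and *Tbx6*, regulators of presomitic mesoderm, were at −1.56 (adjusted p = 0.0554) and −0.64 (adjusted p = 0.0714, edgeR). In the blocked fit 9 of the 12 were called lower and 1 higher, beside 20.2% and 21.1% of all genes.

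**Figure D5:**
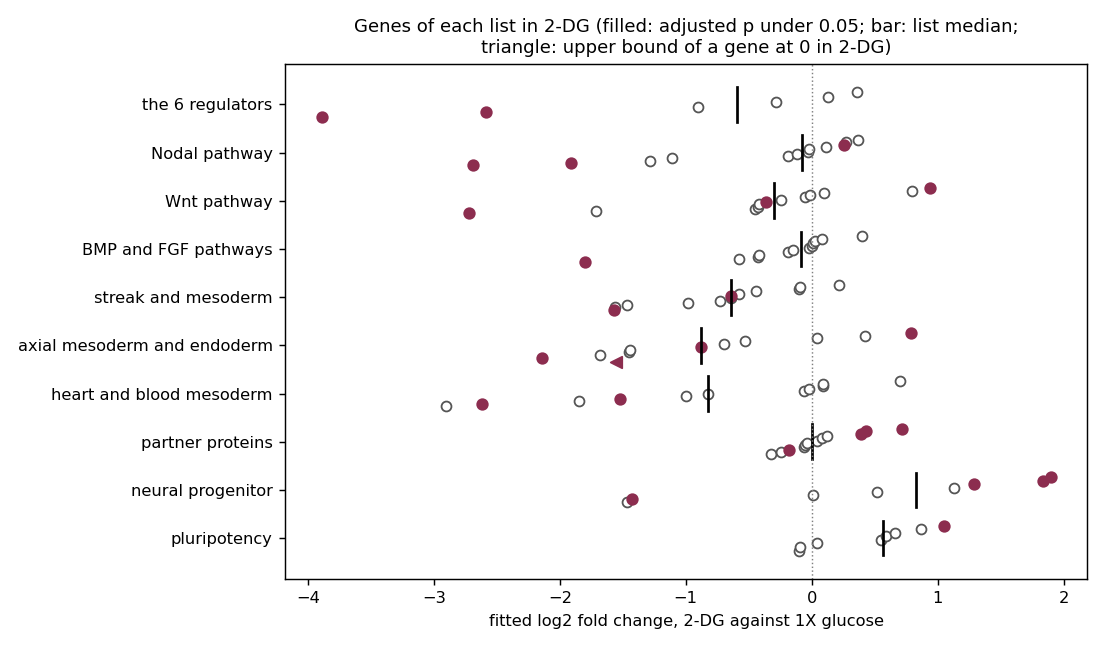
Fitted log2 fold change in 2-DG against 1X glucose (3 libraries each) of every tested gene in the 6 regulators and in 9 lists, with 1 point per gene, a black bar at the list median and filled points for an adjusted p under 0.05. The triangle is Noto, which had no count in 2-DG and is drawn at its bound of −1.55. Mixl1 and Evx1 are the filled points at −3.89 and −2.59 in the top row.

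Among derivatives of the anterior streak, 1 of 11 tested genes was called higher and 3 lower in 2-DG, with a median of −0.88. All genes had 9.12% called higher and 8.51% lower. *Chrd* and *Nog*, which encode the BMP antagonists chordin and noggin, went opposite ways, at 0.79 (adjusted p = 0.0189, edgeR) and −2.14 (adjusted p = 0.00506, edgeR). *Cxcr4*, a chemokine receptor of early mesendoderm, fell by 0.88 (adjusted p = 0.00193, edgeR). *Noto*, a node gene, had no count in the 3 libraries of 2-DG and at most 0.324 CPM in 1X glucose. It was at least 2.93-fold lower against a floor of 3 counts per library, and its call was lost whichever of the 6 libraries was dropped (adjusted p = 0.0613 to 0.0881, edgeR). *Chrd* lost its call in 4 of these fits, without the 2-DG library of passage 13 or 15 or the 1X glucose library of passage 15 or 16 (adjusted p = 0.0536 to 0.0685, edgeR). With the most abundant transcript alone the call of *Chrd* was lost too. Its sign was kept in 12 of 13 alternatives, where the largest adjusted p was 0.931 (edgeR or DESeq2).

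Heart and blood progenitor genes, which follow *Mesp1* in development, were called lower for 2 of 11 tested genes and higher for 0, with a median of −0.82. This stands beside 8.51% of all genes lower and 9.12% higher. *Lmo2*, a cofactor of blood progenitors, was at 63.2, 42.3 and 50.5 CPM in 1X glucose and 4.16, 7.87 and 13.3 CPM in 2-DG. It fell by 2.62 (SE 0.36, adjusted p = 0.00114, edgeR). With the most abundant transcript alone it was at −3.58 and did not pass (adjusted p = 0.145, edgeR). *Etv2*, a regulator of blood and vessel progenitors, fell by 1.52 (adjusted p = 0.0254, edgeR), a call that held, with 1 library dropped, only without the 1X glucose library of passage 15 (adjusted p = 0.0504 to 0.0867 in the other 5 fits, edgeR). The summed level of the list was 69 to 77.5 CPM in 1X glucose and 15.8 to 29.1 CPM in 2-DG. Most of it is *Lmo2*, and without this gene the sums overlapped, at 10.3 to 27.1 and 11.7 to 18.8 CPM. *Kdr* had 0.768 to 6.14 CPM in 1X glucose and 0.351 to 0.681 CPM in 2-DG, and *Tal1* 0.395 to 1.53 and 0.218 to 0.373 CPM. Neither was called, though their groups did not overlap, like 17.2% of all genes with 2-DG lower. *Isl1* and *Gata4*, regulators of heart progenitors, were at −0.02 (adjusted p = 0.987) and 0.09 (adjusted p = 0.852, edgeR). Of the 11 genes, 8 had a log2 fold change under 0.

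Protein partners of the 6 factors were near 0 as a group, with a median of 0.00. Of 12, 3 were called higher and 1 lower, beside 9.12% and 8.51% of all genes. *Ldb2* and *Ssbp2*, which encode cofactors of LIM homeobox proteins such as *Lhx1*, rose by 0.72 (adjusted p = 0.00397) and 0.43 (adjusted p = 0.00155, edgeR), and *Tle1*, a Groucho corepressor, by 0.39 (adjusted p = 0.00979, edgeR). *Ldb1*, the main LIM cofactor, fell by 0.18 (adjusted p = 0.0131, edgeR). With the most abundant transcript alone none of these 4 calls held, at −0.37 for *Ldb2* (adjusted p = 0.965), 0.28 for *Ssbp2* (0.798), −1.75 for *Tle1* (0.702) and 0.78 for *Ldb1* (0.635, edgeR), and 3 of the 4 signs turned. Of the paralogs, *Lhx5* fell by 2.19 (SE 0.33, adjusted p = 0.00176, edgeR), from 0.966 to 1.27 CPM in 1X glucose to 0.146 to 0.346 CPM in 2-DG. *Lhx1* itself did not pass, and *Evx2*, *Gsc2* and *Tbx21* were too low to test.

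Some of the 6 genes are also used by other cells, whose markers were read in 2-DG too. Calls in these lists stand beside 9.12% of all genes higher and 8.51% lower. Of 8 neural progenitor genes, 3 were called higher (*Sox1*, *Pax6* and *Irx3*) and 1 lower (*Nkx6-1*), and their summed level was 92.1 to 224 CPM in 1X glucose and 164 to 358 CPM in 2-DG. For ventral spinal progenitors and interneurons, which use *Evx1* and *Lhx1*, 2 of 4 tested genes were higher (*Neurog2* and *Tubb3*) and 1 lower (*Lhx5*), with sums of 7.42 to 11.8 and 20.5 to 27.8 CPM. Most of these sums is the neuronal tubulin gene *Tubb3*, at 4.79 to 8.19 CPM in 1X glucose and 15.2 to 20.3 CPM in 2-DG. *Dbx1*, a defining gene of the V0 domain, was at 0 in the 3 libraries of 1X glucose and at 0.186 to 0.82 CPM in 2-DG. For intermediate mesoderm, which uses *Lhx1*, 2 of 7 tested genes were higher (*Ret* and *Wt1*) and 0 lower, with sums of 17.4 to 27.5 and 21.4 to 24.1 CPM. For trophoblast, which uses *Eomes*, 2 of 6 were higher (*Krt18* and *Tfap2c*) and 0 lower, with sums of 142 to 347 and 109 to 173 CPM. Most of that sum is *Cdx2*, a gene also used in the posterior embryo (−0.73, adjusted p = 0.333, edgeR), and without it the sums were 6.79 to 8.92 CPM in 1X glucose and 12.6 to 16.3 CPM in 2-DG. For primitive endoderm 0 of 6 were called, sums were 4.19 to 10.4 and 5.01 to 7.14 CPM, and *Afp* and *Ttr* were too low to test. Pluripotency genes had 1 of 8 higher (*Tfcp2l1*) and 0 lower, with sums of 38 to 53.2 and 59.6 to 74.1 CPM. *Irx3* rose by 1.90 (adjusted p = 0.00492), *Tubb3*, a neuronal tubulin gene, by 1.40 (adjusted p = 0.00231) and *Tfap2c* by 1.58 (adjusted p = 0.00445, edgeR), and these calls, like those of *Nkx6-1* and *Lhx5*, held whichever library was dropped. With the most abundant transcript alone *Irx3* (0.0745) and *Tfap2c* (0.657) lost theirs. The calls of *Pax6* (adjusted p = 0.0788 to 0.181 where lost, edgeR) and *Wt1* (0.0501 to 0.148) were lost in all but the fit without the 2-DG library of passage 16. That of *Sox1* was lost without the 2-DG library of passage 13 or the 1X glucose library of passage 15 or 16 (0.0644 to 0.0733), and that of *Neurog2* without the first (0.0538) or second (0.0618) of these. That of *Ret* was lost without a 1X glucose library of passage 13 or 15 or a 2-DG library of passage 15 or 16 (0.0752 to 0.119). *Krt18* (0.0512 to 0.0866) and *Tfcp2l1* (0.0542 to 0.0931) lost theirs without a 2-DG library of passage 13 or 16 or a 1X glucose library of passage 15 or 16. The part of these cells in the levels of the 6 genes was not tested.

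Of the 31 listed genes called in 2-DG, 14 kept their call whichever of the 6 libraries was dropped, and 17 lost it in at least 1 of these fits. Of the 14, 7 lost it with the most abundant transcript alone, and the other 7 (*Cxcr4*, *Lefty2*, *Lhx5*, *Nkx6-1*, *Nog*, *Tubb3* and *Wnt3a*) kept it in all 13 alternatives. All of the 17 also lost it with the most abundant transcript alone, a setting in which fewer of all genes were called. With the passage as a block more listed genes were called, as among all genes, where 21.1% were higher and 20.2% lower. In that fit 2 genes of *Nodal* signalling were higher and 6 lower, 2 and 6 of Wnt signalling, 1 and 3 of BMP and FGF signalling, 2 and 5 of the axial and endoderm list and 0 and 4 of the heart and blood list. Of the partners 4 were higher and 3 lower, of the neural progenitor genes 5 and 1, of the pluripotency genes 5 and 0 and of the primitive endoderm genes 0 and 1. Of the spinal interneuron genes 3 were higher and 1 lower, of the trophoblast genes 3 and 1 and of the intermediate mesoderm genes 2 and 1. In 0X and 3X glucose no gene of any of these lists was called.

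Genes whose level ran most like that of a member over the 12 libraries were taken by the highest Pearson r of log2 CPM among genes of at least 1 CPM. The points share library, depth and the difference between 2-DG and the rest, so the values are a description. For *Mixl1* they were *Dixdc1* (r = 0.99), *Atp10a* (0.983) and *Itpk1* (0.982), among 13692 genes compared. Their log2 fold changes in 2-DG were −0.54, −0.65 and −0.67, far smaller than the −3.89 of *Mixl1*. *Evx1* ran with *Evx1os* (0.996), *Efna1* (0.995), an ephrin gene, and *Tmprss2* (0.994), a protease gene. *Efna1* fell by 1.59 and *Tmprss2* by 1.75 in 2-DG. *Mesp1* ran with *Chrna3*, *Chrnb4* and *Chrna5* (0.982 each), a cluster of nicotinic receptor subunit genes, and *Lhx1* with *Id4* (0.983), *Vcl* (0.98) and *Zfhx4* (0.979). For *Gsc* the values were lower, with 0.882 for *Pus7l* and 0.843 for *Wdr18*.

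Between the members themselves, *Mixl1* and *Evx1* had r = 0.943 and *Lhx1* and *Mesp1* r = 0.912 over 12 libraries. Over the 9 libraries without 2-DG the value of *Lhx1* and *Mesp1* was 0.925, and that of *Mixl1* and *Evx1* was 0.634. *Evx1* and *Mesp1* ran in opposite directions there, at r = −0.944, and *Evx1* and *Lhx1* at −0.787. These 9 libraries hold 3 of each passage, so that the points are not independent.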

How the data were processed

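PolyA RNA of 12 pools of gastruloids was sequenced, 3 libraries for each of 4 treatments. Per the labels and the methods of the study, the authors trimmed reads with Trim Galore, aligned them to mm10 with HISAT2, handled them with SAMtools, removed duplicates with Picard and estimated counts per RefSeq transcript with StringTie. Versions and the strand setting of counting are not given in the sources used here. The deposited values are estimated counts per transcript, not normalized, which were rounded and summed by gene symbol, so that 120312 transcripts gave 38911 genes. Removing duplicates can lower the counts of abundant transcripts, and dividing reads between transcripts makes the counts of genes with shared sequence estimates. The authors' 3 tables of comparisons hold fold changes and p-values and were not used.

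Counts were tested with edgeR 4.0.16 in R 4.3.3 (quasi-likelihood, TMM factors) after its filter by group (minimum count 10), which left 16966 genes. All 12 libraries were fitted together without a block, and p-values were adjusted over all genes tested. Log2 CPM used a prior count of 2. The alternatives were median-of-ratios factors, a block for the passage, no filter, fitting only the groups compared, the most abundant transcript alone, DESeq2 1.42.0 and leaving out each library in turn. A fit without passage 13 and the test of 2-DG by passage were added after the data had been seen. The script was tested on simulated data.

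The replicate number is the ES cell passage that the labels give, which ties libraries of different treatments to 1 round of culture. Deviations from the group means had r = 0.0963 to 0.623 between libraries of the same passage (18 pairs) and −0.44 to 0.191 between those of different passages (36 pairs). Pools share a cell line, so p-values of the fit without a block measure the spread between passages. Those of fits with a term for passage measure the spread left between libraries once treatment and passage are accounted for. Each passage is a single round of culture, so p-values between passages do not measure the spread between rounds. The errors cover counting and these spreads only, at 31902471 to 45956080 counts per library.

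The members and the gene lists were chosen with earlier results of these data known. Named are the 6 members, each listed gene called in 2-DG with the ligands and defining genes of its list, the 3 genes (mean of at least 1 CPM) with the highest r to each member of at least 0.5 CPM, and neighbours that could share reads. Of these, 1 gene is not reported here. Other passage examples were chosen after their values were seen. Positions and promoters come from RefSeq, and transcript lengths from the matched GENCODE transcripts, both on GRCm38.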

Additional observations from a re-analysis of the deposited data

Results flagged for a closer look

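The 2-DG difference was not the same in all passages for 2 of the 6 genes, by a test of terms for 2-DG in each passage over all 16966 genes (edgeR), which called 319 genes (1.88%). The test was added after the values had been seen, and each passage holds 1 library of 2-DG. *Lhx1* had an adjusted p of 0.00804, with 2-DG above 1X glucose by 1.33 on the log2 CPM scale in passage 13 and differences of 0.06 and −0.16 in passages 15 and 16. *Evx1* had an adjusted p of 0.0125, with differences of −3.80, −2.34 and −1.63. Without a filter on low counts the adjusted p was 0.0303 for *Lhx1* and 0.0417 for *Evx1*, and with median-of-ratios factors it was 0.00965 and 0.0137. The cause was not tested.

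Of 117 other listed genes tested, 21 were called by the same test (17.9%). Examples chosen after their values were seen are *Wnt3a* (adjusted p = 0.0102), *T* (0.00217), *Msgn1* (0.00525), *Cdx4* (0.00173) and *Mesp2* (0.0195), and also *Evx1os* (0.0109) beside *Evx1*.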

How the results depend on the processing

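The calls of *Mixl1* and *Evx1* in 2-DG held in each of 13 alternatives, against 1X glucose (log2 fold change −4.33 to −3.58, largest adjusted p 0.00742, and −3.11 to −1.89, largest 0.0414, edgeR or DESeq2) as against 0X glucose (−4.41 to −3.71 and −2.96 to −1.62). The passage as a block, which pairs the libraries, moved the genes called from 2990 to 7001 in 2-DG against 1X glucose and from 3207 to 7305 against 0X glucose, added *Gsc* and turned *Lhx1* against 0X glucose to 0.0559. It changed no other member's call. The most abundant transcript alone left 653 and 775 genes, gave 2 in 3X glucose and turned *Eomes* in 2-DG to 0.38. Fitting only the groups compared gave 1896 genes in 2-DG and 0 in 0X glucose, where DESeq2 gave 12, and 2 in 3X glucose. Between passages 16 and 15, 326 genes were called without a filter and 1328 without the 2-DG libraries, the latter adding *Lhx1* and *Evx1*. The test of 2-DG by passage gave 141 without a filter. Without passage 13, *Lhx1* in 2-DG was at −0.0668, *Mixl1* in 3X glucose at 0.0552 and *Mesp1* against 0X glucose at −0.13.

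Leaving out 1 library gave 1734 to 2352 genes in 2-DG against 1X glucose, 2051 to 2619 against 0X glucose, 1 to 3 in 0X and 0 to 0 in 3X glucose. Against 1X glucose the count was 1734 without the 1X glucose library of passage 15, and 1738 and 1960 without the 2-DG libraries of passages 15 and 13. Against 0X glucose it was 2051 without the 0X glucose library of passage 15, and 2072 and 2136 without the same 2-DG libraries. Signs of uncalled members turned in these fits. Against 1X glucose, 2-DG gave −0.60 to 0.66 for *Eomes*, −0.0518 to 0.73 for *Mesp1* and −0.33 to 0.69 for *Lhx1*. 0X glucose gave −0.17 to 0.32 for *Mixl1*, −0.97 to 1.34 for *Eomes*, −0.33 to 0.19 for *Gsc*, −0.16 to 0.66 for *Mesp1*, −0.32 to 0.83 for *Lhx1* and −0.75 to 0.34 for *Evx1*. 3X glucose gave −0.28 to 0.17 for *Mixl1*, −1.01 to 1.23 for *Eomes*, −0.74 to 0.0477 for *Mesp1*, −0.75 to 0.37 for *Lhx1* and −0.0100 to 0.74 for *Evx1*. Against 0X glucose, 2-DG gave −1.14 to 0.69 for *Eomes*, −0.30 to 0.36 for *Mesp1* and −0.54 to 0.44 for *Lhx1*. The cause was not tested. With 3 to 32 counts, *Eomes* had a standard error of up to 0.91, and of 0.46 in 2-DG with the passage as a block. It did not pass the filter when only the groups compared were fitted, and DESeq2 gave it no adjusted p between passages 16 and 15, where edgeR gave 0.0568 without a filter.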
